A study of Homo sapiens with 15 samples.

Results

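The genes described here were lower in EWS/FLI-depleted Ewing sarcoma cells that received DAF than in depleted cells with an empty vector, and higher in depleted cells that received WT-EF. They were chosen by a rule on measured values. From counts scaled by TMM, the mean log2 CPM (counts relative to the scaled library total, prior count 2) of 3 libraries per condition was taken, and a gene was a member if it averaged at least 50 counts over 15 libraries, if DAF minus iEF was -0.3 or less, and if WT-EF minus iEF was 0.3 or more. The rule gave 272 genes of the 13178 with that mean count, or 2.06%. The table held 57820 gene identifiers, of which 28793 were tested. In all, 2724 of the 13178 genes passed the DAF threshold and 2882 passed the WT-EF threshold, so that the members made up 9.99% of the first set and 9.44% of the second.

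All 15 libraries came from A673 cells, an established Ewing sarcoma line. In iLuc cells the shRNA targeted luciferase, so that endogenous EWS/FLI (endo-EF) was kept. In iEF cells it targeted EWS/FLI and the cDNA vector was empty. WT-EF, Δ22 and DAF cells carried that same shRNA together with a cDNA: full-length EWS/FLI, a form without the EWS domain, or a form in which tyrosines of the amino-terminal part of the EWS domain were changed to alanine. The shRNA was given on day 1 and the cDNA on day 5. All cells were selected in 2 μg/mL puromycin from day 2 and in 400 μg/mL hygromycin from day 6 until day 16, so each library is a selected pool of 1 cell line, with 3 libraries per condition.

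EWS/FLI joins the low-complexity EWS domain, which recruits transcriptional and chromatin machinery, to the ETS-type DNA-binding domain of FLI. It activates genes from GGAA repeats and ETS sites and represses many others. Among the processes linked to it in Ewing sarcoma cells are cell cycle progression and DNA replication, during which cells also make the histones that package new DNA. The paper describes A673 cells as uniquely tolerant of losing EWS/FLI.

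Reads on *FLI1*, which can come from endo-EF or from the cDNA, were at 48.0, 47.8 and 52.4 CPM in iLuc, 12.9, 15.5 and 15.3 CPM in iEF, and 16.0, 18 and 18.7 CPM in WT-EF libraries. They were at 24.4, 32.9 and 36.2 CPM in Δ22 and 22.1, 23.6 and 27.3 CPM in DAF libraries. The cells with DAF or Δ22 thus had more *FLI1* reads than those with WT-EF in every library, and all of the cDNA-bearing cells had fewer than iLuc. The paper places the shRNA target in the 3′ untranslated region, which a rescuing cDNA need not carry. Reads per transcript may therefore differ between endo-EF and cDNA, and the comparison with iLuc does not measure cDNA expression. Total counts ran from 28659475 to 41859880. Of the Ewing sarcoma markers, *PRKCB* averaged 501 CPM in iLuc (here relative to unscaled totals), while *CD99* had at most 3 counts in any library. Of 7 markers of epithelial, endothelial, blood, liver and islet cells that could be matched, none exceeded 1.03 CPM in any library.

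Many members sat close to the rule's thresholds. The median DAF minus iEF difference was -0.48 (log2 CPM), with the middle of the distribution between -0.64 and -0.37, and 21 members reached -1. For 149 members the DAF difference was smaller in size than 0.5. The median WT-EF minus iEF difference was 0.50, between 0.39 and 0.78 for the middle of the distribution, and 41 members reached 1. In 136 members it was under 0.5. Over all 13178 genes the medians were -0.03 for DAF and -0.06 for WT-EF.

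How firmly the libraries separated varied between members. In 182 of the 272 members all 3 DAF libraries were below all 3 iEF libraries, which held for 23.6% of the 13178 genes. In 180 members all 3 WT-EF libraries were above all 3 iEF libraries, against 22.9% of the 13178 genes. Both comparisons chose the members, so nothing is read from these shares. Within the numbered sets, the median over members of DAF minus iEF was -0.47, -0.44 and -0.57, and that of WT-EF minus iEF was 0.35, 0.53 and 0.77. The increase with WT-EF was thus smallest in set 1 and largest in set 3. Only 83 of the members met the rule in each of the 9 recalculations that left out 1 iEF, WT-EF or DAF library. With scaling to library totals in place of TMM, the median WT-EF minus iEF difference of the 13178 genes moved from -0.06 to 0.17 and that of iLuc from -0.03 to 0.18, and the rule then gave 396 genes, of which 196 were members here.

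Close to the WT-EF threshold of 0.3 lay ENSG00000249741 and *DPY19L3* (0.304 each) and the histone gene *H2AC11* (0.304) inside, and *CHAF1B* (just under 0.3), *DHODH* (0.299) and *PDE7A* (0.296) outside. Close to the DAF threshold lay *CHEK2* and *PASK* (both -0.3) and *RACK1* (-0.302) inside, and *UBXN2B* (just short of -0.3), *DCAKD* (-0.299) and *ANKRD16* (-0.299) outside. By mean count, *FAM72C* (50.6), *LINC01719* (50.7) and *IGSF9* (50.7) were just inside, and *BSG-AS1* (48.5), ENSG00000229642 (48.3) and *PARD6A* (48.3) just outside. *CHAF1B* encodes a subunit of the chromatin assembly factor that deposits histones at replication forks.

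The levels in iLuc and in Δ22 cells entered the rule only through the mean count over 15 libraries, not through either difference. *UNCX*, *LRRC10B*, *PLA2G3* and *ANKRD18DP* reached that mean count only through their iLuc libraries. For such genes, a higher level in iLuc was in part set by the filter. How many other members reached it in this way was not counted. The members spread widely in iLuc, from -1.64 to 6.50 relative to iEF (log2 CPM) with a median of 0.96, and Δ22 cells had a median of -0.29. The plot of differences from iEF by condition shows this order. In 174 members the means ran DAF, Δ22, iEF, WT-EF, iLuc from low to high. Δ22 lay between DAF and iEF in 216 members, and DAF was below Δ22 in 241. The iLuc mean was above the WT-EF mean in 217 members and below it in 55, and among the 240 members over 0.3 in iLuc the median ratio of the WT-EF to the iLuc difference was 0.528.

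**Figure D1:**
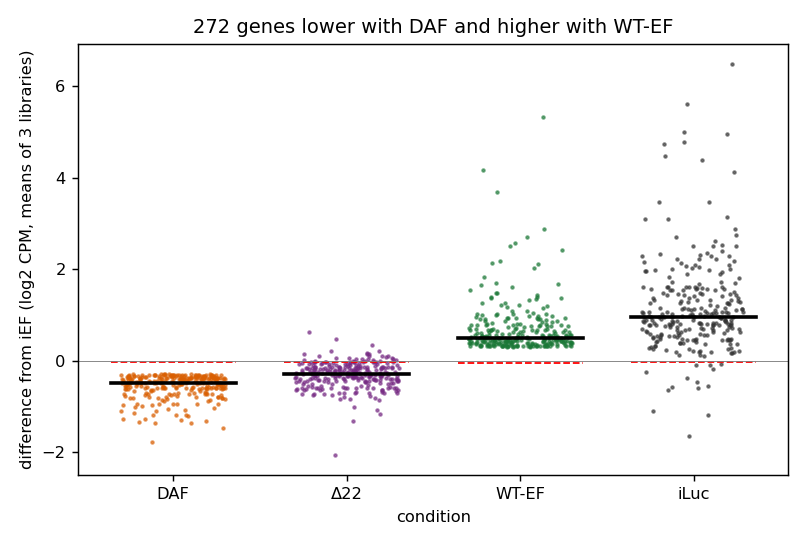
Difference from iEF in log2 CPM (y axis, means of 3 libraries) of each of the 272 members in DAF, Δ22, WT-EF and iLuc cells (x axis). Black lines are the medians of the members (-0.48, -0.29, 0.50 and 0.96) and red dashed lines those of the 13178 genes with a mean count of 50 or more (-0.03, -0.02, -0.06 and -0.03). Points for DAF and WT-EF stop at the thresholds of the rule.

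The question that iLuc and Δ22 can address, apart from their part in the mean count, is whether the members also separated endo-EF from a form without the EWS domain. They did in most cases: 244 of 272 members were higher in iLuc than in Δ22 and 3 were lower (edgeR's quasi-likelihood test, Benjamini-Hochberg adjusted p under 0.05 over 28793 genes). Among the 13178 genes with the same mean count, 32.3% were higher and 35.5% lower. The 244 include *UNCX*, *LRRC10B*, *PLA2G3* and *ANKRD18DP*, which reached the mean count only through iLuc, so for them this is no independent test. The members' fitted log2 fold changes had a median of 1.34, against -0.01 over the 13178 genes, and ranged from -2.78 to 6.45. By numbered set, the median over the members of iLuc minus Δ22 was 1.40, 1.33 and 1.30 (log2 CPM). All 3 iLuc libraries were above all 3 Δ22 libraries in 251 members, against 34.6% of the 13178 genes. Of the 83 members that kept to the rule without any 1 library, 80 were higher and 0 lower, and of the 59 with both differences of 0.5 or more, 55 were higher and 1 lower.

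Δ22 and DAF libraries of the same number deviated together from their condition means (Pearson's r across 13178 genes of 0.747, 0.711 and 0.78 in sets 1, 2 and 3, where genes are not independent replicates), so Δ22 was not fully separate from the DAF libraries that chose the members. WT-EF, whose increase also chose the members, supplies EWS/FLI as endo-EF does. The share higher in iLuc than in Δ22 among the 2882 genes passing the WT-EF threshold was not computed.

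**Figure D2:**
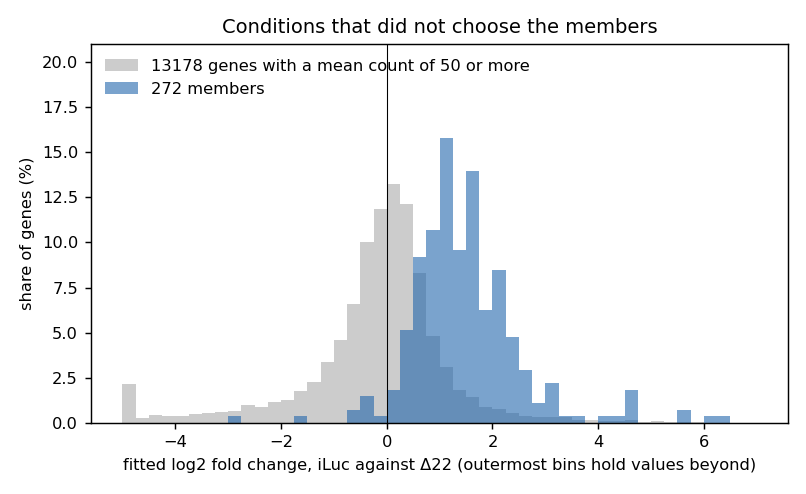
Share of genes in percent (y axis) by fitted log2 fold change of iLuc against Δ22 (x axis, bins of equal width, the outermost holding values beyond) for the 272 members in blue and the 13178 genes with a mean count of 50 or more in grey. The members centre on 1.34 and the 13178 genes on -0.01.

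Compared with iEF, which the rule did use, 229 members were higher in iLuc and 5 lower by the same edgeR test, beside 28.5% and 35% of the 13178 genes. Of the members, 227 were higher in iLuc than in both Δ22 and iEF. Against iEF, Δ22 cells had 23 members lower, beside 1.78% of the 13178 genes, and 0 higher, beside 0.873%. At an unadjusted p under 0.05, edgeR gave 108 members lower and 0 higher, and DESeq2's Wald test gave 49 lower and 0 higher at an adjusted p under 0.05. The share of the 13178 genes at either of these settings was not computed, so nothing is read from them. The 23 included *ALDH1L1*, *H1-1*, *H1-3*, *SKP2* and *MCM10*. This count depended on single libraries. Without 1 iEF or Δ22 library at a time it lay between 3 and 20 (3 without Δ22 replicate 2, 4 without iEF replicate 1 or Δ22 replicate 3, 8 without iEF replicate 3 and 13 without iEF replicate 2). It was 2 without all replicate 1 libraries and 0 without all replicate 2 libraries.

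Members with the widest gap between WT-EF and DAF were mostly low in every depleted cell except those with WT-EF. *PPP1R1A*, which encodes an inhibitor of protein phosphatase 1 (chromosome 12, 54969171 to 54982443 of GRCh37, minus strand), was at 55, 41.9 and 70.1 CPM in iLuc and 8.56, 7.40 and 19.5 CPM in WT-EF. In iEF it was at 0.447, 0.809 and 0.436 CPM, in Δ22 at 0.293, 0.991 and 0.572 CPM, and in DAF at 0.176, 0.554 and 0.738 CPM. The WT-EF libraries did not overlap with any library of iEF, Δ22 or DAF, but DAF overlapped with iEF, on 5, 21 and 22 counts against 17, 24 and 15. It was higher in iLuc than in Δ22 by a log2 fold change of 6.45 (SE 0.41, edgeR, adjusted p = 1.85e-08), the largest among the members.

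*POU1F1*, a POU-homeodomain factor known from pituitary development (chromosome 3, 87308554 to 87325734 of GRCh37), was at 142, 215 and 140 CPM in iLuc and 19.2, 57.6 and 70.3 CPM in WT-EF. Its iEF libraries were at 2.29, 9.31 and 1.60 CPM, Δ22 at 1.73, 7.95 and 2.43 CPM, and DAF at 1.12, 4.41 and 1.84 CPM. Replicate 2 was the highest library in each of these 3 conditions, and their ranges overlapped. The log2 fold change of iLuc against Δ22 was 5.62 (SE 0.46, edgeR, adjusted p = 1.84e-07). Its neighbour among the expressed genes, *HTR1F*, a serotonin receptor gene, was also a member.

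*CHGA* encodes chromogranin A, a protein of neuroendocrine secretory granules. It was one of the wide-gap members in which DAF also lay wholly below iEF: 0.527, 0.475 and 0.168 CPM in DAF against 0.552, 2.12 and 0.698 CPM in iEF. It was at 2.80, 14.4 and 9.51 CPM in WT-EF and at 17.9, 25.9 and 11.4 CPM in iLuc, and the fold change of iLuc against Δ22 was 4.66 on the log2 scale (SE 0.44, edgeR, adjusted p = 8e-07). *RNFT2*, a gene of the RING finger family, was lower in each DAF library (2.21, 2.61 and 1.21 CPM) than in any iEF library (5.75, 4.62 and 4.30 CPM). All its WT-EF libraries were above iEF, from 10.3 to 16.1 CPM. *GNA14*, a G protein alpha subunit, was higher with WT-EF (9.28, 10.7 and 12.9 CPM) than in iLuc (5.04, 4.52 and 4.93 CPM), and DAF was at 1.19, 2.03 and 2.25 CPM. *GNA14* differed between iLuc and Δ22 by 1.08 on the log2 scale (SE 0.27, edgeR, adjusted p = 0.00372), which no longer passed without replicate 1 of all conditions (0.56, adjusted p = 0.0837).

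In *GADL1*, a decarboxylase-like gene, and *PLA2G3*, a secreted phospholipase, the iEF libraries were uneven. *PLA2G3* was at 0.342, 1.92 and 0.524 CPM in iEF, 1.33, 1.29 and 8.44 CPM in WT-EF and 0.351, 0.633 and 0.268 CPM in DAF, so WT-EF overlapped with iEF and replicate 3 stood above the other WT-EF libraries. *GADL1* was at 1.66, 8.06 and 1.48 CPM in iEF and 12.3, 18.4 and 26.2 CPM in WT-EF. Both were far higher in iLuc than in Δ22, by 5.54 (SE 0.69, edgeR, adjusted p = 1.04e-05) and 4.58 (SE 0.46, edgeR, adjusted p = 1.25e-06). *PLA2G3* reached the mean count only through its iLuc libraries, so its value is a description. *UNCX*, a homeobox gene, had 1, 10 and 1 counts in Δ22 and 0, 10 and 4 in DAF against 179, 394 and 154 in iLuc, so its low end was set by few counts. *IGHG4*, with the widest gap of all, had 3, 9 and 1 counts in DAF and 157, 331 and 685 in WT-EF. It belongs to the immunoglobulin constant genes, whose near-identical copies can share reads, and its identity is uncertain. The others among the 12 widest gaps were *ANKRD18DP* (a pseudogene), *LRRC10B* and *PLEKHH1*, each with all WT-EF libraries above all iEF libraries. Outside these 12, the long non-coding RNA *LINC01547* was among the 10 largest increases in iLuc against Δ22 (log2 fold change 4.52, SE 0.30, edgeR, adjusted p = 2.74e-08). It was at 89.9, 121 and 75.7 CPM in iLuc, 13.7, 17.9 and 20.6 CPM in WT-EF, 2.73, 8.40 and 3.17 CPM in iEF and 2.67, 3.53 and 3.92 CPM in DAF.

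**Figure D3:**
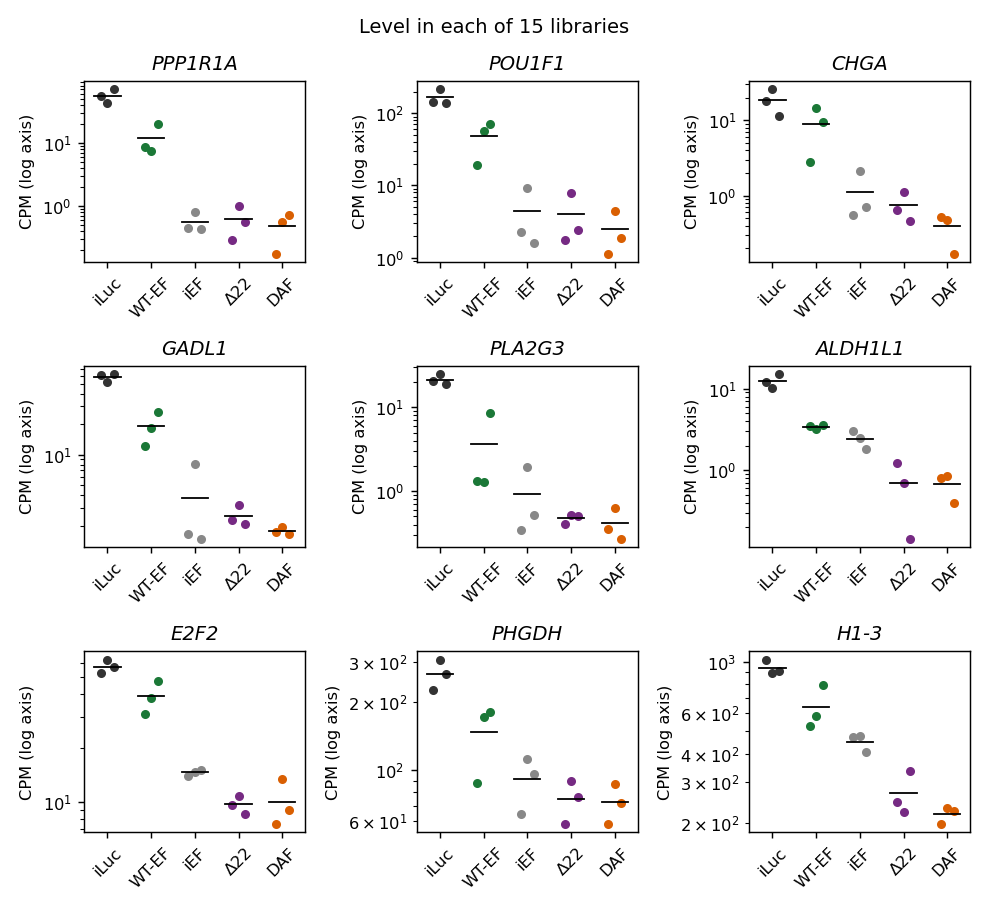
CPM on log axes (y) in each of 15 libraries by condition (x) for 9 members, with horizontal lines at the means of 3 libraries. In the 5 genes from *PPP1R1A* to *PLA2G3* the iEF, Δ22 and DAF libraries overlap or nearly do. *ALDH1L1*, *E2F2* and *H1-3* are lower in every Δ22 and DAF library than in any iEF library.

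Of the lists examined, histone genes had the largest share of members. Replication-dependent histone genes are transcribed in S phase and their mRNAs end in a stem-loop in place of a poly(A) tail. The paper does not say whether RNA with a poly(A) tail was selected for the libraries, so how evenly these mRNAs were captured is not known. This group was defined by gene symbol after the members' values had been seen. Of its 29 genes with a mean count of 50 or more, 9 were members (31%): the linker histone genes *H1-1*, *H1-3* and *H1-4* and the core histone genes *H2AC11*, *H2BC5*, *H2BC18*, *H3C4*, *H4C3* and *H4C8*. All 29 were lower with DAF than in iEF and 27 were higher with WT-EF, with medians of -0.68 and 0.19 (log2 CPM). Between iLuc and Δ22, 28 of 29 were higher and 0 lower (edgeR, same test), beside 32.3% and 35.5% of the 13178 genes, and the median log2 fold change was 1.46. Copies of these genes are close in sequence, so that reads may be shared between them. The list could take in only genes with a symbol, and 23 members (17 of them also without a position) had none, so any histone genes among those are not in the counts of 9 and 29.

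*H1-3* (chromosome 6, 26234440 to 26235215 of GRCh37, minus strand) had the highest mean count of the 9. It was at 1024, 896 and 917 CPM in iLuc, 526, 581 and 798 CPM in WT-EF, 470, 475 and 407 CPM in iEF, 247, 224 and 336 CPM in Δ22 and 197, 232 and 225 CPM in DAF. All Δ22 and DAF libraries were below all iEF libraries, and all WT-EF libraries were above them. The fold change of iLuc against Δ22 was 1.83 (log2, SE 0.15, edgeR, adjusted p = 2.2e-07). *H1-1* was at 37.8, 35.2 and 37.1 CPM in iEF against 12.6, 16.1 and 11.1 CPM in DAF and 18.3, 17.7 and 13.6 CPM in Δ22. It had the second-lowest DAF difference of the members, -1.48 on the log2 scale, after -1.78 for *ALDH1L1*. *H1-4* lay less far below iEF with DAF (85.8, 136 and 119 CPM against 144, 143 and 151 CPM) and further above with WT-EF (239, 253 and 447 CPM).

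Summed over the 29 histone genes, the level was 1836, 2185 and 2274 CPM in DAF, 2280, 2124 and 2682 CPM in Δ22, 3364, 3451 and 3652 CPM in iEF, 3582, 4165 and 5520 CPM in WT-EF and 7014, 6608 and 6534 CPM in iLuc. The DAF and Δ22 sums overlapped, both were below iEF in every library, and WT-EF replicate 1 was within the iEF range. Chromosome 6 held 27 members of its 686 genes with the mean count (3.94%). Between the first and last histone gene of the cluster on its short arm (25723625 to 27860884 of GRCh37), 8 of 20 histone genes and 0 of 17 other genes were members, counting only genes with a position and thus none of the 17 members without one. For the other genes, 0 of 17 is near the 2.06% of all 13178 genes. *H1-4*, *H2BC5*, *H3C4*, *H1-3* and *H4C8* were adjacent among the expressed genes with a position, from 26156557 to 26285866, the longest run of neighbouring members. At higher coordinates, beyond the cluster, *ZSCAN16*, *ZSCAN31*, *ZSCAN23* and *SCAND3*, zinc finger and SCAN-domain genes, were members as well.

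Genes of DNA replication and repair were also among the members. Of 48 DNA replication genes, 8 were members (16.7%): *E2F2*, an activator of S-phase genes; *ORC1*, *MCM10* and *GINS1*, which assemble and start the replicative helicase; *PRIM1*, the primase; *POLE* and *POLE2*, the leading-strand polymerase; and *RFC3*, a subunit of the clamp loader. Of 39 DNA repair genes, 3 were members (7.69%): the helicase gene *BLM*, the exonuclease gene *EXO1* and the checkpoint kinase gene *CHEK2*. Over the whole replication list, all 48 genes were lower with DAF and 32 were higher with WT-EF, with medians of -0.50 and 0.10 (log2 CPM). Their summed level was 4106, 4081 and 4007 CPM in DAF, 5989, 5257 and 6305 CPM in iEF and 5605, 6133 and 6208 CPM in WT-EF. The WT-EF sums thus overlapped with iEF, and the DAF sums were below both. In iLuc against Δ22, 40 of the 48 were higher and 1 lower, and 27 of the 39 repair genes were higher and 3 lower (edgeR, same test), beside 32.3% higher and 35.5% lower among the 13178 genes. All 8 replication and all 3 repair members were among those higher, as were 89.7% of all members, with log2 fold changes from 0.57 for *RFC3* to 2.56 for *E2F2*.

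*MCM10* (chromosome 10, 13203558 to 13253110 of GRCh37) was at 181, 175 and 191 CPM in iLuc, 149, 168 and 180 CPM in WT-EF and 132, 109 and 137 CPM in iEF. It was at 97.9, 94.3 and 87.6 CPM in Δ22 and 87.5, 91.7 and 87.3 CPM in DAF, so the DAF, iEF and WT-EF libraries were apart from each other while DAF and Δ22 overlapped. Its log2 fold change in iLuc against Δ22 was 0.97 (SE 0.10, edgeR, adjusted p = 1.29e-06). *E2F2* had the largest fold change of the 8 replication members. It was at 52.5, 62.7 and 56.6 CPM in iLuc, 31.1, 38.2 and 47.6 CPM in WT-EF and 13.9, 14.7 and 15.1 CPM in iEF. It was at 9.64, 10.8 and 8.58 CPM in Δ22 and 7.49, 13.5 and 8.95 CPM in DAF, and the fold change of iLuc against Δ22 was 2.56 (log2, SE 0.17, edgeR, adjusted p = 2.32e-08). *POLE* was at 139, 142 and 137 CPM in WT-EF, 104.0, 101.1 and 118.6 CPM in iEF and 89.4, 86.7 and 70.7 CPM in DAF, with no overlap between the 3 conditions. *GINS1* was apart in the same way, at 64.7, 71 and 69.9 CPM in DAF, 92.2, 86.2 and 95.1 CPM in iEF and 97.6, 124 and 155 CPM in WT-EF. Among the repair members, *EXO1* was at 35.3, 46.2 and 34.9 CPM in DAF, just below its iEF libraries at 52.3, 47.2 and 54.2 CPM. *BLM* was at 53.4, 56.7 and 49.7 CPM in DAF, 76.4, 68.7 and 75.2 CPM in iEF and 96.8, 107 and 115 CPM in WT-EF. The DAF libraries of *CHEK2* (24.7, 29.4 and 23.8 CPM) overlapped with its iEF libraries (32.8, 36.7 and 26.9 CPM), although DAF was below iEF within each numbered set.

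Genes of mitosis and the spindle did not follow this pattern. Of 36, all were lower with DAF than in iEF, with a median of -0.59, but 3 were higher with WT-EF and 0 were members, beside 2.06% of the 13178 genes. Their summed level was 7050, 7060 and 5590 CPM in DAF, 8574, 7011 and 6040 CPM in Δ22 and 9949, 8388 and 10385 CPM in iEF. It was 7783, 7757 and 7611 CPM in WT-EF and 9741, 9455 and 9609 CPM in iLuc. Mitotic genes were thus below iEF in every DAF and every WT-EF library, and whether the number of dividing cells contributed to the lower histone and replication levels with DAF was not tested. In bulk RNA, fewer cells in S phase and less RNA per cell cannot be told apart.

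**Figure D4:**
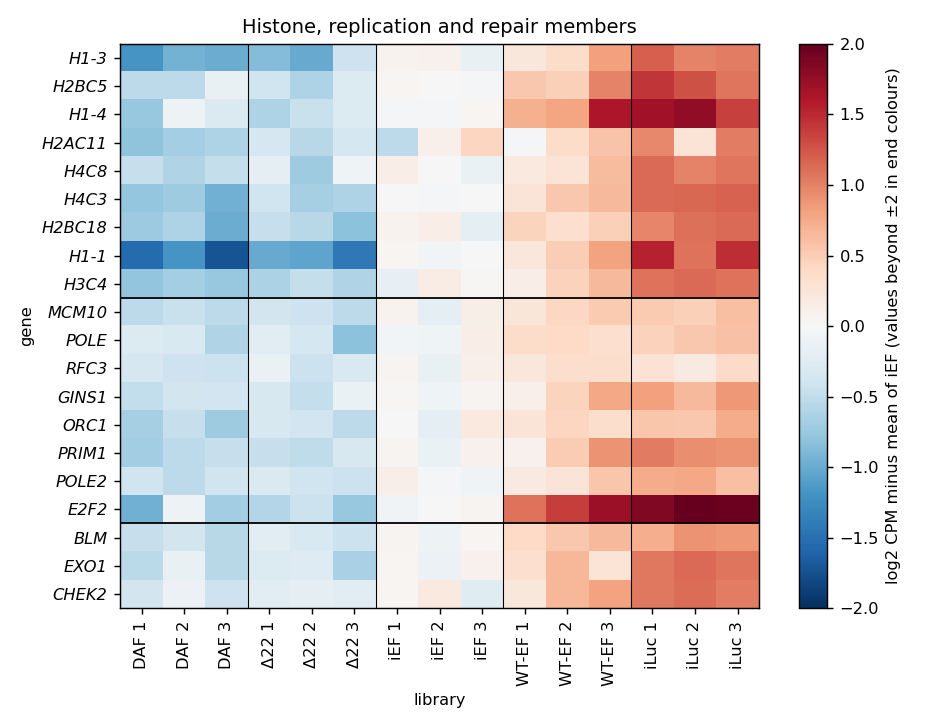
Log2 CPM minus the mean of iEF (colour) in each library (x axis) for the 9 histone, 8 DNA replication and 3 DNA repair members (y axis, separated by lines). DAF and Δ22 columns are blue and iLuc columns red for almost every gene, and *E2F2* and *H1-4* are the strongest red in WT-EF, above all in replicate 3.

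The promoters of these members are shown since the histone and replication members differed in some of the motifs they held, while CCAAT was frequent in both. Windows run from 250 bases before to 50 bases after the annotated start (RefSeq, GRCh38.p14, 5′ to 3′ on the strand of the gene), and capitals mark motif matches on either strand. The motifs so marked were CCAAT (the CCAAT box), then TATAAA (the TATA box), then TGACGTCA (the cyclic AMP response element), TTTGGCGC (an E2F-type site) and CGGAAG (an ETS core). They lie at chr6:26156079-26156378 for *H1-4*, chr6:26157871-26158170 for *H2BC5*, chr10:13161308-13161607 for *MCM10*, chr14:49688165-49688464 on the minus strand for *POLE2* and chr1:23531184-23531483 on the minus strand for *E2F2*.
H1-4: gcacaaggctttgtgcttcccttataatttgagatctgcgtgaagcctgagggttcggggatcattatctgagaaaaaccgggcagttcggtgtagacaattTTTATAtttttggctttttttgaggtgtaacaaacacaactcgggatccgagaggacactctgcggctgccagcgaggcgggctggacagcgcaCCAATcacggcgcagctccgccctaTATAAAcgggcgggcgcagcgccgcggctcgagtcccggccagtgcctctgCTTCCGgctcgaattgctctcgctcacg
H2BC5: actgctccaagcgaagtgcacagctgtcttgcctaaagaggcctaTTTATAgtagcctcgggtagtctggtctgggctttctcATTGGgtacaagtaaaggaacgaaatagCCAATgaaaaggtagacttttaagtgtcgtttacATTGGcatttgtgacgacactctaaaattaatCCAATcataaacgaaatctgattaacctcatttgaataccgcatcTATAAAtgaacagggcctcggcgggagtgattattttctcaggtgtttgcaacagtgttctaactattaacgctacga
MCM10: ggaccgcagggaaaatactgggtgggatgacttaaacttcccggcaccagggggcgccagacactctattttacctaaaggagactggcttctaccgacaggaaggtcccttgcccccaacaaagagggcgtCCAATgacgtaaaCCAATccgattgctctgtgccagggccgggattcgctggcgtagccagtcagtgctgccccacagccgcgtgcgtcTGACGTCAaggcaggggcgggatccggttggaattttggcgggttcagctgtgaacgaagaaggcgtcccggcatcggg
POLE2: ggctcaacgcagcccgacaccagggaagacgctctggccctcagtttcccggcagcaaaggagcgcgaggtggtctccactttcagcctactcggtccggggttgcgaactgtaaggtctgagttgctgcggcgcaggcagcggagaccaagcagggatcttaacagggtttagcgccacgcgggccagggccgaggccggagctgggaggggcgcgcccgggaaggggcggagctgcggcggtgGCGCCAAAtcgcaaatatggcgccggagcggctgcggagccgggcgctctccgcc
E2F2: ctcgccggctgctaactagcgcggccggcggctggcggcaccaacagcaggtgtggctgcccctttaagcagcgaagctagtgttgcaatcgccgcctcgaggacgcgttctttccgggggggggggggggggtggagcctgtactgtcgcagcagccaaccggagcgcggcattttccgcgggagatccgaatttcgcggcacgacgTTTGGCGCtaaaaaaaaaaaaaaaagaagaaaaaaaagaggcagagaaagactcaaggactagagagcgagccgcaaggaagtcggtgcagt

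A promoter window was matched by symbol for 188 of 272 members. Among them TTTGGCGC was present in 8 (4.26%), beside 0.659% of all 27305 promoters and 1.04% of 10028 promoters of genes with the mean count. The 8 were *E2F2*, *TP73*, *ZNF730*, *MND1*, *GINS1*, *POLE2*, *POLE* and *OIP5*, of which 4 were among the 11 replication and repair members with a window. Of 8 histone members with a window, 7 held CCAAT, beside 35.7% of all promoters and 37.2% of those with the mean count. CCAAT was also in 7 of the 11 replication and repair windows and in 42.6% of the 188 members. TATAAA was in 5 of the 8 histone windows, beside 12% and 5.83%, in 0 of the 11 and in 10.1% of the 188. The 8 histone windows had a median GC content of 45.7%, against 58.3% of all promoters and 65.3% of those with the mean count. Whether base composition contributed to the motif shares was not tested. The full ETS site CCGGAAGT was in 25 members (13.3%), beside 4.44% of all promoters and 9.08% of those with the mean count, and GGAAGGAA, a pair of GGAA units, was in 8 members (4.26%) beside 3.58% and 3.44%. None of the 8 histone or 11 replication and repair windows held GGAAGGAA or CCGGAAGT. For the other motifs the members' share was 37.8% for CGGAAG (33.5% of promoters with the mean count), 4.79% for TGACGTCA (3.37%), 1.06% for TGACTCA (3.09%), 7.98% for CACGTG (10.2%), 2.13% for the NRF1 motif (2.35%) and 63.3% for GGGCGG (70.1%). TGACGTCA and CACGTG read the same on both strands, and every CCGGAAGT match is also a match to CGGAAG.

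Serine, one-carbon and amino acid genes contributed 3 members of 30. *PHGDH*, the first enzyme of serine synthesis, was at 226, 309 and 266 CPM in iLuc, 87.6, 172 and 181 CPM in WT-EF, 64.5, 112 and 96.9 CPM in iEF, 57.9, 89.4 and 76.6 CPM in Δ22 and 57.9, 87.2 and 72.0 CPM in DAF. Replicate 1 was the lowest library in every one of these conditions, and the DAF, iEF and WT-EF ranges overlapped although the order of the 3 was the same in each numbered set. iLuc exceeded Δ22 by 1.85 (log2, SE 0.12, edgeR, adjusted p = 3.23e-08). *ASNS*, asparagine synthetase, also had its lowest library in replicate 1 of each condition, with 21.6, 37 and 33.6 CPM in DAF, 32.3, 49.2 and 45.6 CPM in iEF and 43.5, 84.2 and 94.8 CPM in WT-EF. *ALDH1L1*, a folate enzyme of the cytosol, was the member with the lowest DAF difference. It was at 0.808, 0.844 and 0.402 CPM in DAF and 1.23, 0.704 and 0.143 CPM in Δ22, all below its iEF libraries at 3.05, 2.46 and 1.80 CPM, while WT-EF was at 3.46, 3.22 and 3.57 CPM and iLuc at 12, 10.2 and 15 CPM.

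Developmental and signalling genes were spread over several lists with few members each. Homeobox regulators outside the HOX clusters held 3 members of 54 genes (5.56%), *POU1F1*, *POU3F2* and *DLX6*. No HOX gene of 20 was a member, which is near the 2.06% of all 13178 genes. *POU3F2*, a neural POU factor, was at 8.78, 16.8 and 15.8 CPM in WT-EF, 6.31, 5.70 and 7.59 CPM in iEF and 4.08, 6.44 and 4.46 CPM in DAF, and it was higher in iLuc than in Δ22 by 2.40 (log2, SE 0.25, edgeR, adjusted p = 1.88e-06). Hedgehog pathway members were *GAS1*, a co-receptor, and *SMO*, the transducer, 2 of 11 genes (18.2%). Over those 11, DAF was below iEF in 7 and WT-EF above in 5, with medians of -0.36 and -0.1 (log2 CPM). *GAS1* was at 10.9, 9.18 and 15.5 CPM in DAF, 16.9, 22.7 and 15.5 CPM in iEF and 27.1, 27.5 and 42.5 CPM in WT-EF. *HES6* of the Notch list was at 0.527, 0.396 and 0.771 CPM in DAF, wholly below iEF at 1.02, 1.21 and 1.34 CPM. Single or paired members came from synaptic genes (*SNAP25*), neurotransmitter receptors (*HTR1F* and *CHRNA5*), axon guidance (*EPHA7* and *SEMA6B*), Polycomb (*CBX2*), histone methylation (*SUV39H2*) and G1 regulators (*E2F5*). All of these were higher in iLuc than in Δ22, as were 89.7% of all members and 32.3% of the 13178 genes.

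Genes named ZNF, mostly KRAB-type zinc finger repressors, gave 10 members of 407 (2.46%), close to the 2.06% of all genes. Of the 10, 7 were higher in iLuc than in Δ22 and 0 lower, beside 89.7% and 1.1% of all members and 32.3% and 35.5% of the 13178 genes. *ZNF792* was at 2.46, 2.40 and 2.41 CPM in DAF, 2.84, 3.37 and 3.96 CPM in iEF and 6.81, 11.6 and 12.1 CPM in WT-EF. *ZNF423*, a regulator of neural and fat cell differentiation, was at 21.8, 24.3 and 22 CPM in WT-EF, above iLuc (7.58, 11.2 and 9.37 CPM) as well as iEF (9.43, 12 and 10.4 CPM). Its difference between iLuc and Δ22 was 0.25 on the log2 scale (SE 0.12, edgeR, adjusted p = 0.121).

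None of 37 known EWS/FLI-activated targets with the mean count was a member. DAF was below iEF in 11 of them and WT-EF above in 33, with medians of 0.72 and 1.26 (log2 CPM), so most of their means were above iEF with either construct. Of 42 lists, 28 held no member, among them the mitochondrial ribosome, the respiratory chain, cholesterol synthesis, glycolysis, collagens, integrins, interferon-stimulated genes and YAP/TEAD targets. Lists this short would hold few or no members at a share of 2.06%, so nothing is read from their absence. In the plot of list medians the histone, mitosis and replication lists lie to the left and the known targets at the upper right.

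**Figure D5:**
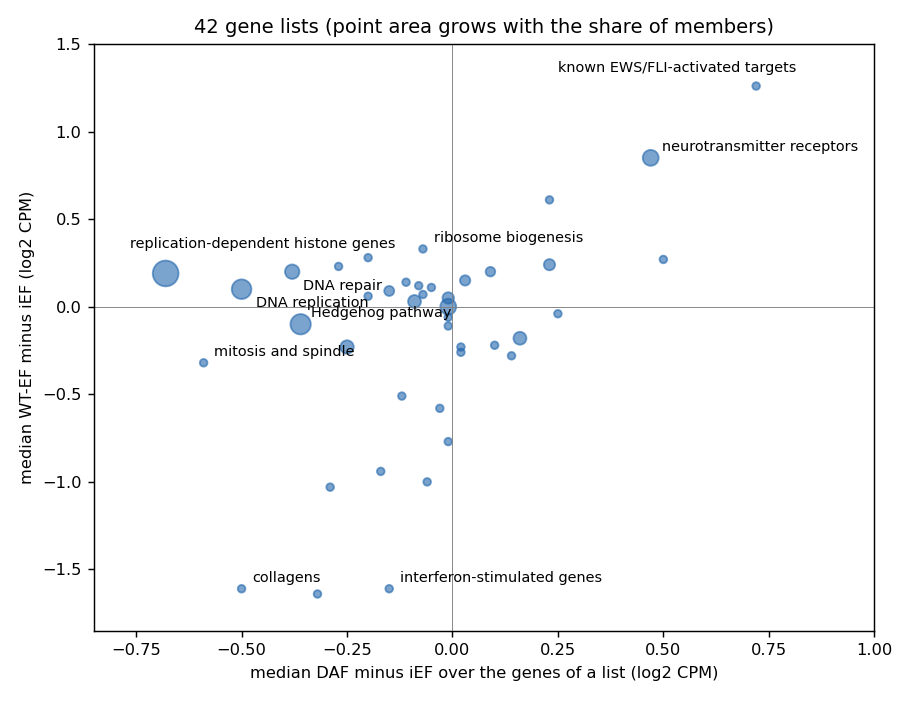
Median difference from iEF over the genes of each of 42 lists with DAF (x axis) and WT-EF (y axis), in log2 CPM, with point area growing with the share of list genes that are members. Histone genes lie at -0.68 and 0.19, DNA replication at -0.50 and 0.10, mitosis at -0.59 and -0.32, and known EWS/FLI-activated targets at 0.72 and 1.26.

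Of the members that were not higher in iLuc than in Δ22, 25 did not pass the test and 3 were lower. *NETO2*, an auxiliary subunit of kainate receptors, was at 66.2, 59.5 and 47.7 CPM in iLuc, 115, 118 and 96.0 CPM in WT-EF, 88.5, 74.8 and 90 CPM in iEF, 84.7, 81.6 and 72.4 CPM in Δ22 and 59.5, 59.7 and 50.8 CPM in DAF. WT-EF and endo-EF thus lay on opposite sides of iEF, and the fold change of iLuc against Δ22 was -0.47 (log2, SE 0.10, edgeR, adjusted p = 0.00179). *BRINP2*, a neural gene, had a fold change of -1.59 (SE 0.34, edgeR, adjusted p = 0.00138), with 1.41, 0.842 and 1.76 CPM in iLuc against 4.48, 3.08 and 4.43 CPM in Δ22. *LRRC55* had a fold change of -2.78 (SE 1.00, edgeR, adjusted p = 0.0346), but Δ22 replicate 3 was at 15.3 CPM and the other two at 0.205 and 0.965 CPM. Without that library the value was -0.92 (edgeR, adjusted p = 0.463), and without iLuc replicate 2 or 3 it was -2.78 (adjusted p = 0.0821) or -1.91 (adjusted p = 0.218).

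By annotation, 255 of 272 members had a position and 249 a symbol. Of those with a position, 86.7% were protein-coding, 7.45% were long non-coding RNAs and 12 were pseudogenes, beside 91.2% protein-coding and 4.89% long non-coding among all genes with the mean count. The long non-coding members included *HOTAIR*, an antisense transcript of the HOXC cluster, at 4.74, 4.71 and 4.03 CPM in iLuc and 1.23, 1.00 and 1.04 CPM in DAF. Its DAF libraries overlapped with those of iEF (1.47, 2.09 and 1.08 CPM), and reads cannot be told from those of overlapping HOXC transcripts if strand was not used in counting. *DANCR* was at 21.5, 20.6 and 22.2 CPM in iLuc and 5.62, 6.15 and 4.53 CPM in DAF. Members were expressed at lower counts than the genes they were drawn from, with a median mean count of 430 against 901.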

How the data were processed

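RNA-seq libraries of A673 cells were analysed, 3 per condition, grouped by the sample labels. The authors aligned reads to hg19 with STAR (2.5.1b per the submitters' processing notes) and counted them per gene with htseq-count in intersection-strict mode. The deposited counts are whole numbers without normalization. A second deposited table holds signal values, the authors' counts after ComBat adjustment for batch, which served only as an alternative. Deposited fold changes and p-values of the authors' own comparisons and 3 count columns that matched no sample label were not used.

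The 28793 genes with a mean of 1 count or more entered 1 edgeR 4.0.16 quasi-likelihood model (R 4.3.3) with TMM normalization, with condition and replicate number as a block, and p-values were adjusted by Benjamini-Hochberg with a threshold of 0.05. The block follows the methods, which adjusted each numbered set for batch. Same-numbered libraries of different conditions deviated together with a median r of 0.186 over 30 pairs (from -0.183 to 0.780), against -0.084 over 60 other pairs. P-values rest on the spread between libraries that is left once condition and numbered set are fitted. The script was tested on simulated data. Total counts of 28659475 to 41859880 per library set the precision, and low levels rest on the counts given.

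The members and gene lists were chosen with earlier results of these data known. Named genes are *FLI1*, the 12 members with a symbol and the largest WT-EF minus DAF difference, up to 10 with the largest increase and decrease in iLuc against Δ22, up to 4 members per list by mean count, and the 3 genes nearest each threshold on either side. Others, *H1-1*, *E2F2*, *HOTAIR* and *DANCR* among them, and the histone list were chosen after their values were seen. Positions are from GENCODE on GRCh37 and promoter sequences from RefSeq on GRCh38.p14. Alternatives used DESeq2 1.42.0 (Wald test or size factors), other filters and thresholds, no block, and fits without single libraries or sets.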

Additional observations from a re-analysis of the deposited data

How the results depend on the processing

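The iLuc against Δ22 counts of members kept within 228 to 247 higher and 2 to 4 lower over 15 alternatives, and those of iLuc against iEF within 206 to 235 higher. Without the replicate block, 14 members were lower in Δ22 than in iEF, against 23 with it, and the block changed no other count by over 1.5 times. That count was 49 with DESeq2's Wald test and 53 with no filter on low counts, and without single libraries or replicate sets it ran from 0 to 30. Members lower in iLuc than in iEF (5) ran from 1 to 6, and the median log2 fold change of iLuc against Δ22 from 1.28 to 1.39, when single libraries or sets were left out. The causes were not tested.

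Membership depended on the thresholds, with 589 genes at 0.2 and 59 at 0.5, of which all 59 were among the 272. Other settings gave 297 genes with DESeq2's size factors (254 shared), 247 with the ComBat-adjusted table scaled to totals (138 shared) and 207 to 366 without single libraries or sets. Chosen after seeing the data, TMM over all genes with a count gave 263 and scaling to library totals 396 (196 shared). Of 47 named members, 45 kept their call and direction for iLuc against Δ22 in all 15 alternatives. The exceptions were *GNA14*, which missed the threshold without replicate 1, and *LRRC55*, which missed it in 7 alternatives, with log2 fold changes from -3.98 to -0.58 and adjusted p from 5.79e-08 to 0.592.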
